A study of Mus musculus with 2 samples.

Results

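The microRNA genes numbered Mir6900 to Mir7099 are a stretch of consecutively numbered mouse hairpins, most of which lie against a splice site of another gene. Members were all annotated microRNA genes whose GENCODE M21 name is Mir followed by a number from 6900 to 7099, with letter or copy suffixes allowed. The rule found 197 of the 2202 microRNA genes counted, and it used names only, not counts. MicroRNA-seq libraries were made from RNA below 30 nt of 2 hearts. The mice were female B6CASTF1/J (B6Cast F1), a first-generation hybrid of inbred strains, at 4 days of age, and no allele, treatment or other group was part of the set. Biological replicate 1 was the heart of animal 3 and replicate 2 that of animal 4. Both carry the same donor entry in the labels, and each is 1 technical replicate. The data therefore describe 1 group of 2 hearts, and every test between the hearts compares 2 libraries and not conditions.

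A mirtron is a microRNA whose hairpin is a whole short intron. The spliceosome cuts both of its ends, the lariat is opened by the debranching enzyme, and the hairpin is passed to Dicer without the nuclear cut by Drosha that other microRNAs need. In a tailed mirtron only 1 hairpin end is a splice site, and the rest of the intron hangs off the other end. Introns start with GU and end with AG after a run of pyrimidines, so a hairpin cut at an acceptor has a pyrimidine-rich 3' arm (3p), which must pair with a purine-rich 5' arm (5p). A mature strand finds its targets mainly through its seed, bases 2 to 8.

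Of the 197 hairpins, 184 ended within 5 nt of the 3' end of an annotated intron on their own strand, and 183 of those ended at it exactly. Only 15 of the 184 also began within 5 nt of the intron's start, in an intron of at most 300 nt, and so had the shape of a mirtron. The other 169 had the shape of a tailed mirtron with a 5' tail, whose length had a median of 499 nt and ran from 7 to 19633 nt. The tail was at most 30 nt in 26 of them and over 1000 nt in 54. By these coordinates the label "mirtron-rich" describes a series of mostly tailed hairpins. A further 4 hairpins (Mir6927, Mir6936, Mir6973b and Mir6977) began at an intron's first base but ended short of its acceptor. For Mir6973b this holds for an intron of 140 nt. It also runs 7 nt past the acceptor of an annotated intron of 73 nt with the same start. Another 7 hairpins ran 6 or 7 nt past the acceptor into the next exon, Mir7025 overlapped an exon of Pdgfra, and Mir7036b lay inside an intron of Add1. Among the 2005 other microRNA genes, 8 filled a short intron, 35 ended at an acceptor with a tail, and 720 lay inside an intron away from its ends.

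**Figure D1:**
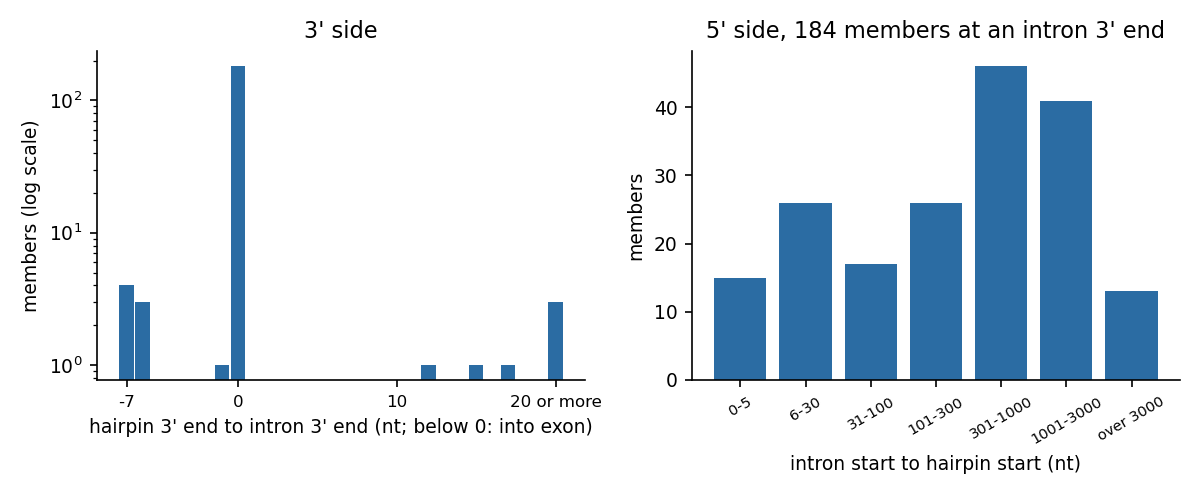
Position of the member hairpins in their introns (mm10, GENCODE M21). The left panel counts members (log scale) by the distance in nt from the hairpin's 3' end to the intron's 3' end, where 183 members stand at 0 and the 7 below -5 run into the next exon; the right panel counts the 184 members at an acceptor by the distance in nt from intron start to hairpin start, where 15 fill their intron.

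The shape can be read in the hairpins themselves, given 5' to 3' from the RefSeq table (GRCm38.p6, the mm10 build) with the intron's terminal dinucleotides in capitals. The first pair below fill their introns, in Dbn1, which encodes the actin-binding protein drebrin (chr13:55477681-55477776, minus strand), and in Hspg2, which encodes the basement membrane proteoglycan perlecan (chr4:137538286-137538370, plus strand). The second pair end at the acceptor of longer introns, in Dock6, which encodes an activator of small GTPases (chr9:21809941-21810000, minus strand), and in Tbc1d16, which encodes a Rab GTPase-activating protein (chr11:119154076-119154137, minus strand). They are shown because they are among the members with the highest counts of each shape and overlap no annotated exon.
Mir6944, whole intron of 96 nt: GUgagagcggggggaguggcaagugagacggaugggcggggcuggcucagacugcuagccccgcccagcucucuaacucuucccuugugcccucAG
Mir7018, whole intron of 85 nt: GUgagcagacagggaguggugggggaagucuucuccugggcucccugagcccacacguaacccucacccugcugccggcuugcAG
Mir7083, last 60 nt of an intron of 1833 nt: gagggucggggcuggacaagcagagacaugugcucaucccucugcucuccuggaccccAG
Mir6934, last 62 nt of an intron of 1006 nt: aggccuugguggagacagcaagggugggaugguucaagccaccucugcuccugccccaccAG

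Splice-site letters and arm composition are given beside the position of the hairpins in introns. Since introns end with AG, an AG at hairpins ending with an intron follows from how they were sorted. AG stood at the hairpin's end in 183 of 197 members (92.9%) in 65.1% of the 43 other genes at an acceptor and in 7.58% of all 2005 other microRNA genes. It ended 183 of the 184 members at an acceptor and none of the 13 others. Of the 15 members that fill an intron, 13 began with GU. Over the 20 nt before the last 2, the median member was 75% pyrimidine, against 50% in the other genes. Over the first 25 nt it was 44% guanine, against 28%. The hairpins were short, with a median of 66 nt against 93 nt, and richer in G and C, with a median of 57.4% against 50%. In the other genes at an acceptor the medians were 75% pyrimidine, 44% guanine and 65 nt.

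**Figure D2:**
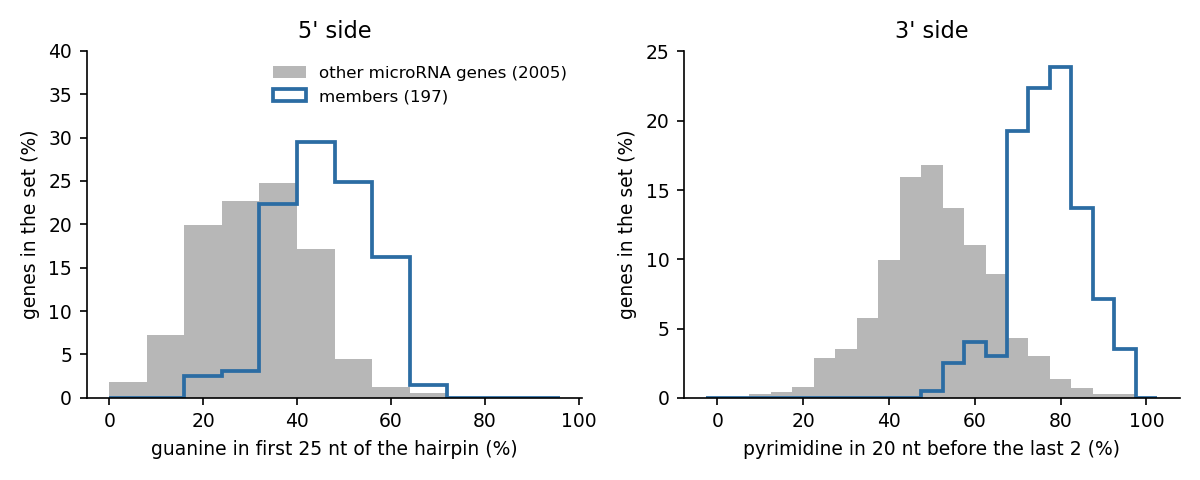
Base composition of hairpins. Each histogram gives the percent of genes in the set by the guanine percent of the first 25 nt (left) and by the pyrimidine percent of the 20 nt before the last 2 (right), for the 197 members and the 2005 other microRNA genes; the members lie to the right in both, with medians of 44% against 28% and 75% against 50%.

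RefSeq entries matched 181 members by name and gave 346 mature strands, 173 from each arm. Of the 163 3p strands from hairpins that end with their intron, 128 ended on the intron's last base, 30 ended 1 to 3 nt before it and 5 further in. The 13 5p strands of hairpins filling an intron included 11 that began on the intron's first base. The median 5p strand was 44% G, against 27.3% in other genes, and the median 3p strand was 72% C and U, against 54.5%. The mature strands of the 6 members with the highest mean level are given 5' to 3' with the seed in capitals, since the counts below are per hairpin and cannot say which strand was present.
miR-7083-5p: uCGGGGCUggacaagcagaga
miR-7083-3p: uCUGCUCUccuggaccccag
miR-6900-5p: uGCCAGGAgaagccuagagccguc
miR-6900-3p: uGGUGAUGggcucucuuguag
miR-6944-5p: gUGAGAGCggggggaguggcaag
miR-6944-3p: uAACUCUUcccuugugcccucag
miR-6990-5p: cCCAGGGUgagucagggcucu
miR-6990-3p: aGCCCUGCcucuuccuggcag
miR-6934-5p: uUGGUGGAgacagcaagggugg
miR-6934-3p: aCCUCUGCuccugccccaccag
miR-6945-5p: uCCUGGGAggggcagccccugg
miR-6945-3p: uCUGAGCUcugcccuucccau
In 5 of these 6 genes the 3p strand ends in the AG of the acceptor, and miR-6945-3p stops 2 nt before the hairpin's end. The 6 genes share no seed among themselves.

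The series is not a seed family. Its mature strands held 317 distinct seeds, of which 259 belonged to 1 member and to no other microRNA gene in the table. At most 3 members shared a seed, 25 seeds were shared by at least 2 members, and 53 members took part in such sharing. Seeds of the 6 genes above recurred in 2 further members, Mir7032 (11 and 3 counts in replicates 1 and 2) and Mir6927 (3 and 2 counts).
miR-7032-5p, seed of miR-6990-5p: cCCAGGGUgguccccgagaggguggu
miR-6927-3p, seed of miR-6945-3p: cCUGAGCUggcuccccugcag
The seed shared by more than 1 member with at least 10 counts in each heart belonged to miR-7018-3p and miR-7068-3p, both cut from the acceptor end of a whole-intron hairpin, and also to miR-7023-3p, from Pik3cd. These strands were chosen for display after their counts were seen.
miR-7018-3p: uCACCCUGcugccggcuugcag
miR-7068-3p: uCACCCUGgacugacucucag
miR-7023-3p: uCACCCUGucugcgccccucag
Of the 317 seeds, 42 also occurred in microRNA genes outside the series. 1 of them is held by miR-6932-3p and miR-7039-3p and by 3p strands of Mir26a-2 and Mir26b.

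Most of the series was present in the libraries at a trace level. Counts on the gene's own strand were found for 156 of 197 members (79.2%) in at least 1 heart, against 631 of the 2005 other genes (31.5%). At least 10 counts in each heart, called detected here, were reached by 19 members (9.64%), against 354 others (17.7%). No member reached 100 counts in each heart, which 251 others did, and 41 members had 0 counts in both. A count of 0 allows up to 3 counts, or 0.467 CPM (counts scaled to the library's total of own-strand microRNA counts) in replicate 1 and 0.530 CPM in replicate 2, for counting error only. Replicate 1 held 1257 member counts of 6417302 in all, a share of 0.0196% (exact Clopper-Pearson 95% interval 0.0185 to 0.0207). Replicate 2 held 797 of 5662222, a share of 0.0141% (0.0131 to 0.0151). The mean share was 0.0168% ± 0.0039 (SD, n = 2), although 197 genes are 8.95% of the genes counted. The 2 intervals do not overlap, but they cover counting error only and not variation between hearts. The shares are also of library totals. On that scale the median log2 ratio of replicate 1 over replicate 2 was 0.31 over the 491 genes tested between the hearts.

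Members gathered at the low end of the range. They made up 30.4% of the genes with 1 to 9 counts over both hearts and 37.7% of those with 10 to 49, but 5.09% of the 373 detected genes. Multi-mapped reads are missing from these counts too. The median summed count of a member with any count was 7, against 58 in the other genes. Detected members had a median sum of 35 counts, against 1156.5 in other detected genes. The threshold of 10 lies inside the mass of the members' counts. A further 23 members passed it in replicate 1 alone and 3 in replicate 2 alone, among them Mir7042 with 9 and 11 counts and Mir6976 with 13 and 7.

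**Figure D3:**
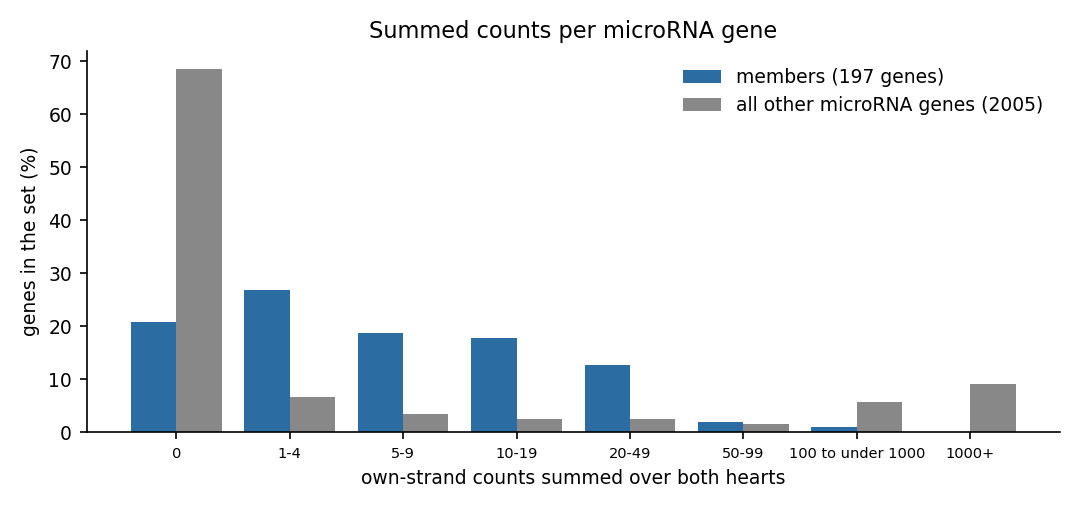
Percent of genes (y axis) by the own-strand counts summed over both hearts (x axis), for the 197 members and the 2005 other microRNA genes. Members are most frequent at 1 to 49 counts, 2 of them reach 100 and none 1000, while 68.5% of the other genes are at 0 and 9.03% at 1000 or more.

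Almost all member reads came from the annotated strand. Reads on the opposite strand of members numbered 0 in replicate 1 and 1 in replicate 2, the latter at Mir7071 (own-strand counts 8 and 6). Other genes with a summed count below 200 and no microRNA gene opposite had 63 opposite-strand counts beside 8887 own-strand counts, against 1 beside 2054 in the members. The 63 came from 19 of 346 such genes. The 43 other genes at an acceptor had 0 opposite-strand counts, beside 12417 and 8659 own-strand counts in replicates 1 and 2. A low typical count was not particular to these numbers, but the lack of high counts was not shared by all genes at an acceptor. Among the 43 other microRNA genes at an acceptor, 34 (79.1%) had a count and 9 (20.9%) were detected. Those with a count had a median sum of 8, against 7 in the members. However, 3 of the 43 reached 1000 counts in sum, and the 43 held 0.193% and 0.153% of the counts in replicates 1 and 2. Just below the range, Mir6898 had 5 and 6 counts and Mir6899 had 2 and 1, and just above it Mir7115 had 2 and 0 and Mir7116 had 1 and 0, all at an acceptor. Some lower-numbered whole-intron hairpins reached higher levels, with 2108 and 1092 counts for Mir1981 in Marc2, 1098 and 712 for Mir3102 in Arhgef17, and 546 and 378 for Mir877 in Abcf1. Others that also fill an intron did not, with 26 and 2 counts for Mir1982 in Oaz1, 2 and 0 for Mir1224 and 1 and 0 for Mir3547. These whole-intron genes are examples picked by hand, and not all 8 of that shape outside the series.

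Mir7083, in Dock6, had the highest count of the series, with 109 counts in replicate 1 and 65 in replicate 2. Its level was 14.2 ± 3.89 CPM (SD, n = 2), place 274 of all microRNA genes. It lay above every other member in both hearts. Levels are per hairpin and not divided by length, because a read below 30 nt spans a whole mature strand.

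The next places were held by Mir6900 and Mir6944. Mir6900, at an acceptor of Ndufa10, which encodes a subunit of mitochondrial complex I (chr1:92464483-92464542, minus strand), had 51 and 50 counts (8.39 ± 0.62 CPM). Mir6944, the whole-intron hairpin of Dbn1 shown above, had 64 and 30 counts (7.64 ± 3.31 CPM). The order of this pair reversed between the hearts, so they were not separated.

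Mir6990 lies at an acceptor of Esrra, the gene of the oestrogen-related receptor alpha, a nuclear receptor that drives mitochondrial genes in heart muscle (chr19:6914196-6914286, minus strand). It had 34 and 26 counts (4.95 ± 0.50 CPM). Mir6934 in Tbc1d16 had 26 and 30 counts (4.67 ± 0.88 CPM), and its order with Mir6990 reversed too. Mir6990 is also wholly covered by an exon of another annotated transcript on its strand.

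Below these, levels ran together from 3.84 CPM down to 2.01 CPM. Mir6994 in Patl1, an mRNA decapping cofactor, had 30 and 17 counts. Mir7051 in Etfb, a subunit of the electron transfer flavoprotein of fatty acid oxidation, had 31 and 10. Mir6966 in Narfl, a factor of cytosolic iron-sulphur protein assembly, had 20 and 18. The order of these 3 differed between the hearts.

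The whole-intron hairpin Mir7018 in Hspg2 had 17 and 20 counts. Those of Mir7068 in Cherp (16 and 12 counts) and Mir6958 in Dennd6b (17 and 10 counts) completed the detected whole-intron members, 4 of 15. The detected share was 14 of 169 among tailed members. Over both shapes, 6 of 72 members in introns up to 300 nt and 12 of 112 in longer introns were detected, and intron length and summed count had a Spearman rank correlation of -0.07 across the 184 members at an acceptor, which are not independent replicates.

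Among the remaining detected members, Mir6929 in Ptges3l had 23 and 12 counts, Mir7059 in Cln3, the gene of Batten disease, had 17 and 17, and Mir7019 in Pink1, a kinase of mitochondrial quality control, had 21 and 12. Mir7031 in Sh2b3, a negative regulator of cytokine signalling, had 18 and 11. The last 4 stood at the edge of detection, namely Mir7069 in Farsa (17 and 10), Mir7036b in Add1 (16 and 10), Mir6980 in Arap3 (15 and 10) and Mir7021 in Prdm2 (11 and 13). In CPM, 13 of the 19 were higher in replicate 1. On that scale the median log2 ratio of replicate 1 over replicate 2 was 0.31 over the 491 genes tested between the hearts. With the TMM-scaled library sizes of those tests, 11 of the 19 were higher in replicate 1. Of the 19, 7 overlapped an annotated exon on their strand, beside 41 of all 197 members. No detected member had 20 nt in a row in common with a second, non-overlapping microRNA hairpin.

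**Figure D4:**
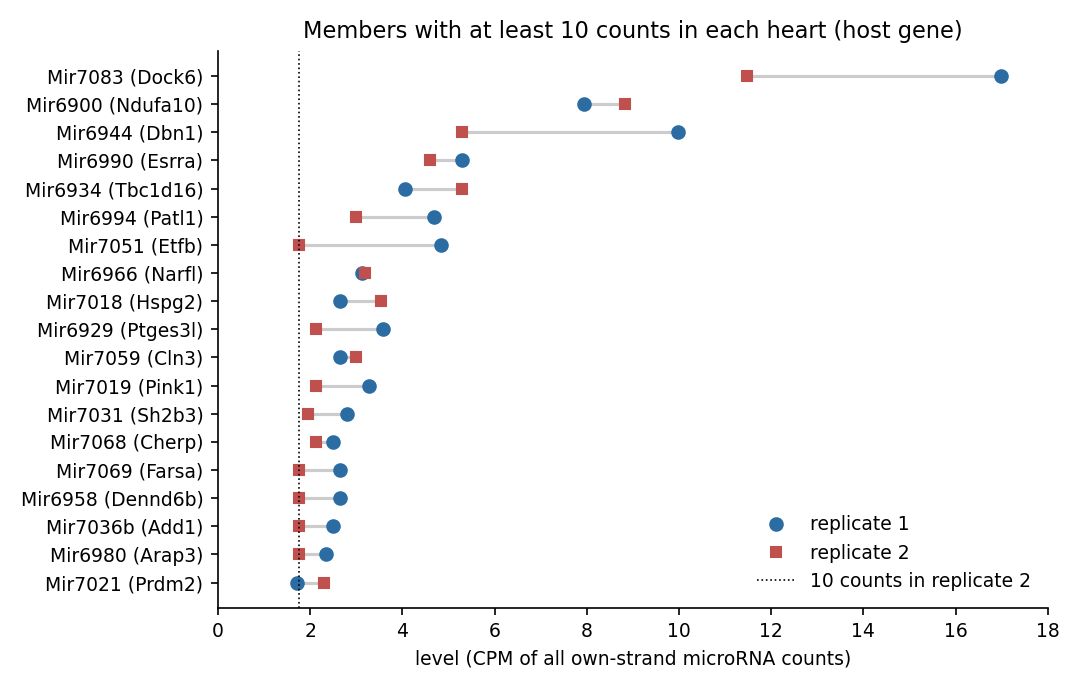
Levels of the 19 detected members, each named with its host gene. The x axis is CPM of all own-strand microRNA counts, circles are replicate 1, squares replicate 2, the grey line joins them, and the dotted line marks 10 counts in replicate 2 (1.77 CPM); Mir7083 stands above the rest in both hearts, and the lower places overlap.

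Counts were spread over many members. The highest member held 8.67% of the series' counts in replicate 1 and 8.16% in replicate 2, the top 10 held 33.8% and 34.5%, and the top 50 held 74.9% and 72.9%. Across the 197 members the counts of the hearts had a Spearman rank correlation of 0.79, over points that share both libraries.

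The hosts were 192 genes on 20 chromosomes, and 195 of the members lay in protein-coding genes. Messenger RNA was not measured here, so a host's own level was not known. The share of all annotated genes that host a member was not computed, so the list counts that follow have no background beside them. Of 58 genes of heart muscle contraction and calcium handling, none hosted a member. Among 46 genes of mitochondrial and muscle metabolism, Esrra alone did. Of 51 genes of extracellular matrix, fibroblasts and vessels, 3 did, namely Hspg2, Notch1 (Mir6996, 13 and 4 counts) and the laminin gene Lama5 (Mir7005, 0 and 1 count). Of 43 neuronal genes, the hosts were Slc17a7 (Mir7055) and Camk2a (Mir6982), a vesicular glutamate transporter and a synaptic kinase, both with 0 counts in each heart. Of 42 blood and immune genes the host was Csf1r, the macrophage growth factor receptor (Mir6983, 3 and 0 counts). The other 190 members lay in genes of no list. The lists are not complete. Ndufa10, Etfb and Pink1, named above for mitochondrial roles and hosts of detected members, are in none of them.

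Outside these lists, a few hosts with a well-known site of activity are given as single examples, chosen after the counts were seen, and no share is drawn from them. Counts of 0 in both hearts were found for Mir6969 in the pancreatic colipase gene Clps, Mir7066 in the brain proteoglycan gene Ncan and Mir7058 in the T cell adaptor gene Lat. They were also found for Mir6910 in Ptbp1, Mir7038 in Eif3b and Mir7090 in Ctnnb1, which are widely expressed genes, and for Mir6923, which fills an intron of the embryonic myosin gene Myh3. Other hosts of restricted activity carried counts, with 6 and 8 for Mir7007 in the mast cell gene Cpa3 and 2 and 4 for Mir7062 in Adam8, a protease gene of leukocytes. Mir6976 in Srf, the serum response factor of muscle gene transcription, had 13 and 7 counts. Mir7025 in Pdgfra, a receptor of fibroblasts, had 5 and 6. In bulk hearts, fewer cells of a type and less RNA per cell cannot be told apart.

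In 5 host genes lay 2 members each, and their counts were not equal, although differences within pairs were not tested. In Ankrd52, Mir6915 had 18 and 6 counts and Mir6914 had 4 and 2. In Arap3, Mir6980 had 15 and 10 and Mir6981, which fills an intron of 115 nt, had 0 and 0. In Skiv2l, Mir6971 had 11 and 5 and the whole-intron hairpin Mir6970, which has 20 nt in a row in common with a different hairpin, had 2 and 1. In Srebf1 the members had 3 and 1 (Mir6922) and 1 and 0 (Mir6921), and in Cmip 0 and 1 (Mir7077) and 0 and 0 (Mir7078), at or near the floor.

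Between the hearts, few members were called different, and their low counts limit what the test can call. At an exact binomial adjusted p under 0.05 with any fold, 4 of the 66 members tested and 235 of all 491 genes tested passed. The shares below are therefore not shares at like counts. Of the 66 members with at least 10 counts in sum, 4 were called by a two-sided exact binomial test with Benjamini-Hochberg adjustment over 491 genes (adjusted p under 0.05 and over 2-fold), beside 11.2% of the 491 genes. Higher in replicate 1 were 2 members, beside 3.67% of all genes, and 2 were higher in replicate 2, beside 7.54%. With a common dispersion that edgeR estimated from both libraries as 1 group, its exact test called 0 of the 66 members and 4 of the 491 genes, with 0 members at an unadjusted p under 0.05.

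Mir6945 lies at an acceptor of Pdlim7, the gene of the PDZ-LIM protein enigma of the actin cytoskeleton (chr13:55507625-55507692, minus strand). It had 43 counts in replicate 1 and 9 in replicate 2, a fold of 3.35 after scaling (exact 95% interval 1.61 to 7.81), with an exact binomial adjusted p of 0.000882 and an edgeR exact test adjusted p of 0.898. Mir6912 in Scamp4, a secretory carrier membrane protein, had 11 and 1 counts, a fold of 7.71 (exact 95% interval 1.12 to 332) and an adjusted p of 0.0415 by the exact binomial test. Both hairpins are wholly covered by an exon of another annotated coding transcript on their strand. Of all members, 7 were wholly covered in this way. The 5 other than this pair had 55 and 28 counts in sum, and the 3 of them that were tested (Mir7019, Mir7036b and Mir7067, with 10 and 3 counts in the last) were each higher in replicate 1 without passing the test. That direction was common, with 46 of the 66 members tested and 34 of the 50 tested members that overlap no exon on their strand. The part of host messenger RNA fragments in these counts was not tested.

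In the other direction, Mir7013 in the phosphatidylinositol kinase gene Pi4kb had 4 and 13 counts, 4.64-fold higher in replicate 2 (exact 95% interval 1.43 to 19.5), with an exact binomial adjusted p of 0.0117. Mir6951 in Azin1, an inhibitor of antizyme in polyamine metabolism, had 3 and 10 counts, 4.76-fold higher in replicate 2 (1.22 to 26.9), with an exact binomial adjusted p of 0.0242. Neither overlaps an annotated exon on its strand. With library totals as the scale these fell short of the threshold, at adjusted p of 0.0509 and 0.0871 by the exact binomial test, while Mir7051 and Mir7052 (17 and 4 counts) passed it as higher in replicate 1. That scaling moved the median log2 ratio of all 491 genes from -0.02 to 0.31.

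As a group the tested members leaned to replicate 1. Their median log2 ratio of replicate 1 over replicate 2 was 0.22, and 46 of 66 were higher in replicate 1, against a median of -0.02 and 236 of 491 over all genes tested. The lean was not particular to the series. Of the other genes at an acceptor, 14 were tested, with a median of 0.13 and 10 higher in replicate 1. No test was made of either lean.

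**Figure D5:**
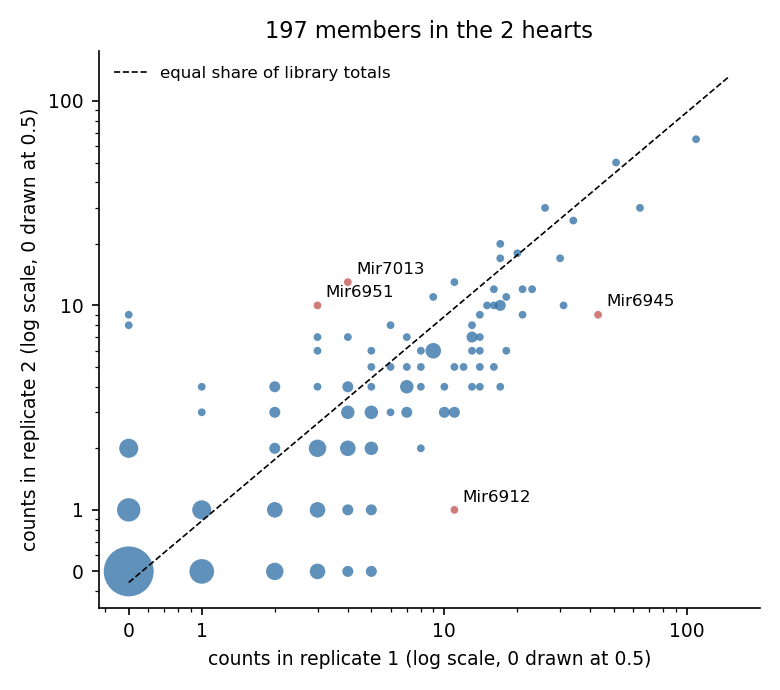
Own-strand counts of the 197 members in replicate 1 (x axis) and replicate 2 (y axis), both on log scales with 0 drawn at 0.5. Point area grows with the number of members at the same pair of counts, red points are the 4 members called by the exact binomial test, and the dashed line marks equal shares of the library totals; most points lie within a few counts of the origin.

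Heart identity was checked on other microRNA genes. Heart muscle genes were abundant in both libraries but did not move one way, with 69837 and 34080 counts for Mir208a, 47853 and 31937 for Mir208b, and 17027 and 42393 for Mir499. Endothelial Mir126a and smooth muscle Mir143 had 293230 to 413403, higher in replicate 2. Blood genes were mixed too, with 2515 and 566 counts for the red cell gene Mir451a, 622 and 147 for Mir144, 1538 and 495 for the leukocyte gene Mir142, and 533 and 840 for Mir223 of myeloid cells. Epithelial Mir200c had 2696 and 1606 counts and epithelial Mir205 had 9 and 180, and the liver gene Mir122 had 675 and 488. The part of blood or other tissue in the members' differences between hearts was not tested.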

How the data were processed

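The authors deposited raw counts per microRNA gene, 1 table per heart, with no normalization and columns for both strands, the gene's own strand and the opposite strand. Per the labels the build was mm10, and genes were matched to GENCODE M21. The program for alignment or counting is not given in the sources used here. Of 14450527 and 13495259 reads, 44.4% and 42.0% were assigned to own-strand microRNA counts, and 39.6% and 43.2% were multi-mapped and in no gene's count. Own-strand counts were used, and the 4 summary entries per file stayed out of totals.

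CPM was computed on total own-strand counts. Introns, exons and hosts came from M21, so the geometry depends on which isoforms it lists. Mature and hairpin sequences came from RefSeq (GRCm38.p6), and 16 members had no match. Base composition came from M21 transcripts.

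Genes with at least 10 counts in sum were tested with an exact conditional binomial test on TMM-scaled library sizes (edgeR 4.0.16, R 4.3.3), 0.5 being added for log2 ratios. DESeq2 1.42.0 size factors, edgeR's exact test, other filters and other detection floors were alternatives. The test was run on simulated libraries with counting noise alone, where it called 1 of 293 genes simulated without a difference. That is the noise the test assumes, so the simulation cannot show how it behaves with variation between hearts. Python 3.11.15, scipy 1.17.1, pandas 2.3.3 and matplotlib 3.10.9 were used. Intervals and floors cover counting error only, since no molecular identifiers are named.

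Members and lists were chosen with earlier results of these data known. Named genes were the detected members, those called different and those with the highest opposite-strand counts. Of the members with at least 10 counts in 1 heart only, some are named and not all. Sequences were those of the 6 highest members and of members sharing their seeds. Exceptions are stated as chosen after their values were seen.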

Additional observations from a re-analysis of the deposited data

How the results depend on the processing

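The number of detected members followed the floor, with 76 at 3 counts in each heart, 116 at 1 count and 3 at 30 counts, against 19 at 10 counts. Leaving out a heart gave 22 (without replicate 1) to 42 (without replicate 2). The member share of counts was 0.0210% in the column without strand, whose total is smaller. Detected members were 18 when 1 hairpin end at an intron end was enough, against 4 with both ends. Members called different were 0 with a filter of 10 counts in each heart, where 19 members were tested and 1 had an unadjusted p under 0.05, and 0 with edgeR's exact test. They were 4 with DESeq2 size factors (2 higher in each replicate), 4 with library totals (all 4 higher in replicate 1), 5 with no filter (1 higher in replicate 1 and 4 in replicate 2, with Mir6919 at 0 and 8 counts and Mir7049 at 0 and 9 added) and 3 without strand (1 and 2). Mir6912 missed the threshold with no filter (adjusted p 0.0655, exact binomial test) and without strand (0.0733). No paired analysis was possible because the series has 1 group of 2 libraries. At these depths a member with 10 counts stands at 1.56 and 1.77 CPM, so most members lie near or below what the libraries can resolve.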
